A study of Rattus norvegicus with 48 samples.

Results

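The comparison was between the renal cortex of rats that drank apocynin and the renal cortex of control rats, both on regular rat chow without hydroxy-L-proline (HLP), the precursor of oxalate that the other arms of the study received. It took the 12 arrays that the signal table names for these groups, 6 apocynin and 6 control, out of 48 in the series, and the 11434 of 22226 probes whose detection p-value, a test against the negative controls of the array, was below 0.05 in 6 or more of the 12. Each array, an Illumina RatRef-12 expression BeadChip, held biotin-labelled RNA of 1 rat. The labels describe male Wistar rats at 28 days, with 4 mmol apocynin in the water, whereas the methods name another strain, count 28 days of treatment and give the dose as 4 mM. The apocynin group without HLP is named in the sample labels and is not described in the methods. The other cortex arrays, HLP+Apocynin and HLP, and the medulla arrays of the same rats were used only for comparison. In whole tissue, fewer cells of a type and less RNA per cell cannot be told apart.

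Apocynin is a plant phenol that is given to animals as an inhibitor of NADPH oxidase. This enzyme passes electrons from NADPH to oxygen and so makes superoxide. Its membrane core pairs a catalytic NOX protein with p22phox, and the phagocyte form needs cytosolic subunits and a Rac GTPase to become active. In the renal cortex the main catalytic form is Nox4 of the tubules, whereas the phagocyte form is best known from infiltrating white blood cells. Most of the mass of the cortex is proximal tubule, which reabsorbs solutes and carries transporters and drug-metabolising enzymes. Its straight end runs down into the outer stripe of the medulla.

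Several properties of the 12 arrays bear on all of these results. The deposited table of log2 values holds the same arrays under other names, so that 3 of the 6 apocynin arrays (2, 4 and 6) carry HLP+Apocynin names there and 3 of the 6 control arrays (2, 4 and 6) carry HLP names. The names of the signal table were used, and results under the other names are given beside them. The apocynin arrays stand in another run of 12 columns than the control arrays and were brighter, with a median unnormalised signal of 43.5 to 50.6 in the apocynin arrays and 36.4 to 39.9 in the control arrays (exact permutation test, two-sided, p = 0.00216, the smallest that 924 splits allow). Treatment and column block cannot be told apart within the cortex without HLP. The proximal tubule markers averaged a log2 signal of 11.19 to 11.28 in the apocynin arrays and 10.73 to 11.26 in the control arrays. Single medulla arrays reached the same range, with 9.55 to 11.16 in control medulla. The lowest of the control cortex arrays was array 4, which on a score of medulla minus proximal tubule markers stood at −1.34, against −2.66 to −2.29 in the apocynin arrays and −2.56 to −2.28 in the other control arrays. It lay on the medulla side of the midpoint between the control tissues (−1.45), so that the cortex label was not borne out for this array, and control medulla array 4, at −2.52, lay on the cortex side. Control medulla array 1 (−2.06) and apocynin medulla arrays 1 (−1.59), 4 (−2.23) and 5 (−1.48) lay on the cortex side too. Whether control cortex array 4 and control medulla array 4 were exchanged, or any of these arrays cut differently, was not tested. The share of probes detected was 49.5% to 52.7% in the 12 arrays.

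Many probes differed by small amounts between the apocynin and the control cortex. Of the 11434 probes, 1774 differed between the groups (limma, adjusted p under 0.05), which is 15.5% of those tested. Of these, 1070 were higher in the apocynin group (9.36%) and 704 were lower (6.16%). At an unadjusted p under 0.05 there were 3571 probes, where about 572 are expected by chance. With median scaling the balance turned, with 670 rises and 767 falls, and the authors' log2 values, renamed after the signal table, gave 718 rises and 1171 falls. Without control array 4 there were 990 rises and 700 falls. Few of the changes were large: 45 probes rose and 71 fell at least 1.5-fold, and 3 rose and 36 fell at least 2-fold. The 2 groups did not overlap in 977 probes (8.54%). Counted once per gene, by its brightest probe, 666 of 8285 genes rose (8.04%), 509 fell (6.14%), and the median difference of all genes was 0.00 on the log2 scale.

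The calls were densest among the dimmest probes. In the dimmest of 4 equal bins of mean log2 signal, 28.9% of the probes were called, against 12%, 10.4% and 10.8% in the next 3 bins, and the median size of a called difference there was 0.06. Probes detected in exactly 6 of the 12 arrays were called in 57.3% of cases, against 11.6% of those detected in all 12. Among these are 112 probes detected in all 6 apocynin and in 0 control arrays and 52 with the opposite pattern, whose direction is fixed by that detection. Of the 511 rises in the dimmest bin, 443 were also called higher in control medulla than in control cortex (644 of all 2859 probes of the bin were, and 30.5% of the 11434 probes differed between these tissues in either direction). Both comparisons share the 6 control cortex arrays, and the control medulla arrays were brighter too (median signal 55.1 to 61.1). The part of array brightness in these calls was not tested. With all probes of the dimmest bin left out, an alternative chosen after seeing the data, 409 probes rose and 252 fell.

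**Figure D1:**
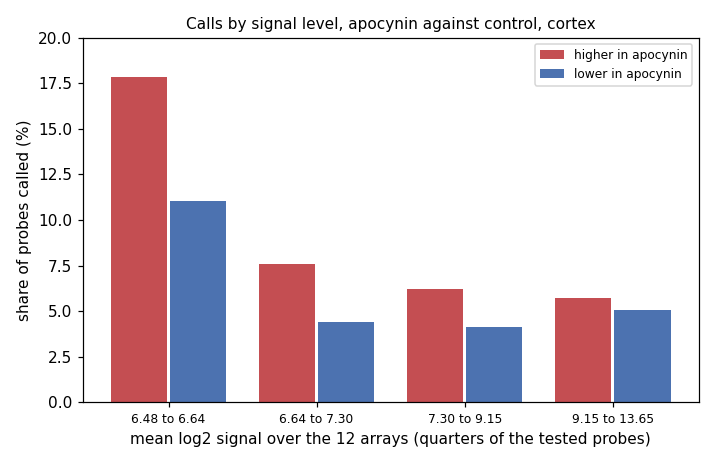
Share of tested probes called higher (red) or lower (blue) in the apocynin cortex, in percent, in 4 equal bins of the mean log2 signal over the 12 arrays. The dimmest bin, 6.48 to 6.64, holds 511 rises and 315 falls, more than each of the other bins.

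The largest rises included secreted proteins and transcription factors. The 12 genes of largest rise gained 0.76 to 1.41 on the log2 scale, and in 8 of them all apocynin arrays lay above all control arrays. Clu, Grem1 and Hpgd also passed the test in the HLP+Apocynin against the HLP cortex, and for none of the 12 did the difference with and without HLP pass its own test.

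Stc1 encodes stanniocalcin-1, a secreted glycoprotein that acts on calcium and phosphate handling. Its log2 signal was 9.09, 10.44 and 10.92 (lowest, median and highest) in the apocynin arrays, and 8.12, 8.93 and 9.09 in the control arrays. The lowest apocynin array stood at the level of the highest control array and the other 5 were higher. The difference was 1.41 ± 0.29 (SE, n = 6 and 6, adjusted p = 0.00639 by limma). Grem1, a secreted antagonist of bone morphogenetic proteins, had a log2 signal of 9.42, 10.43 and 10.97 in the apocynin arrays and 8.34, 8.93 and 9.82 in the control arrays, so that the groups overlapped. It differed by 1.28 ± 0.30 (adjusted p = 0.0127).

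Clu, the extracellular chaperone clusterin and a common marker of tubular injury, had a log2 signal of 11.27, 12.09 and 12.92 in the apocynin arrays and 10.67, 10.82 and 11.33 in the control arrays. Here 4 apocynin arrays were above every control array, and arrays 1 and 5 were just below control array 6. The difference was 1.09 ± 0.24 (adjusted p = 0.00901), and it was 1.33 between HLP+Apocynin and HLP cortex (adjusted p = 0.0034) and 1.12 in the medulla of the same rats (adjusted p = 0.013). Hpgd degrades prostaglandins. Its log2 signal was 9.54, 10.08 and 10.58 in the apocynin arrays against 8.43, 9.27 and 9.50 in the control arrays, with no overlap and a difference of 0.92 ± 0.20 (adjusted p = 0.00779). The difference was 0.82 with HLP (adjusted p = 0.0026) and 1.43 in the medulla (adjusted p = 0.0033).

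A second run of rises was tighter within the groups. Kmt2e, a chromatin regulator of the KMT2 family, was at 7.84, 7.92 and 8.24 in the apocynin arrays and 7.02, 7.11 and 7.28 in the control arrays. Nr2f2, the nuclear receptor COUP-TFII, was at 8.45, 8.60 and 8.79 in the apocynin arrays and 7.72, 7.79 and 8.05 in the control arrays. Both pairs of groups were separate, with differences of 0.83 ± 0.08 (adjusted p = 2.42e-05) and 0.76 ± 0.08 (adjusted p = 6.27e-05). The cytoskeletal protein gene Add3 differed by 0.81 ± 0.10 (adjusted p = 0.000192), the Wnt receptor gene Fzd1 by 0.83 ± 0.11 (adjusted p = 0.000342) and the transcription factor gene Maf by 0.84 ± 0.15 (adjusted p = 0.00194), each without overlap of the groups. Crtap, which takes part in the hydroxylation of collagen, rose by 0.89, and Nop58, of the small nucleolar ribonucleoproteins, by 0.88. Under the array names of the log2 table, 4 of the 12 rises were still called, namely Add3, Clu, Grem1 and Hpgd.

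**Figure D2:**
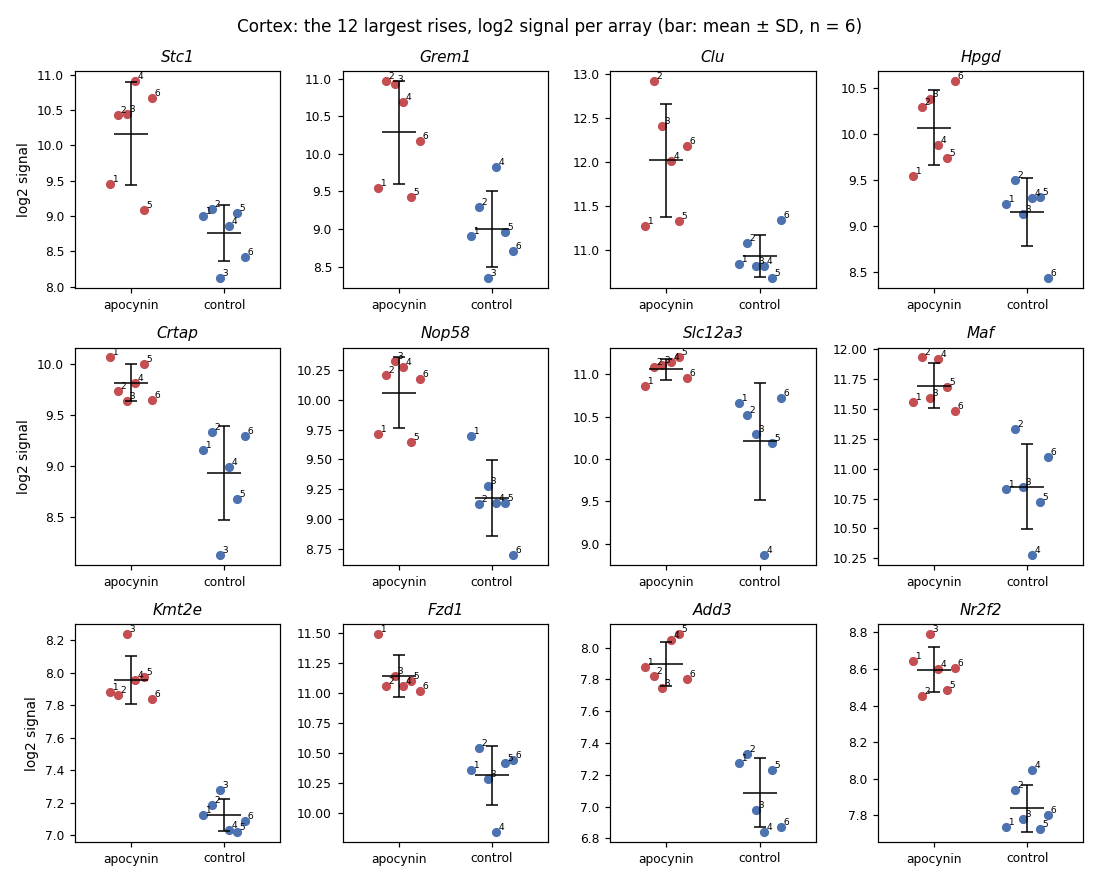
Log2 signal of the 12 genes of largest rise in each apocynin (red, left) and control (blue, right) cortex array; numbers are array numbers, and bars give the mean ± SD of 6 arrays. In Kmt2e and Nr2f2 the groups stand apart, and in Slc12a3 control array 4 lies far below the other control arrays.

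The largest falls shared 1 pattern over the arrays. The apocynin arrays were low together, control arrays 1, 3, 4 and 5 were high, and control arrays 2 and 6 were near the apocynin level. Control arrays 2 and 6 were the lowest 2 controls in 33 of the 36 probes that fell at least 2-fold, against 8.97% of all tested probes. In 6 of these 36 the groups did not overlap.

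Tff3, a trefoil peptide secreted by epithelia, fell the most. Its log2 signal was 9.11, 9.84 and 10.71 in the apocynin arrays and 10.22, 13.00 and 13.38 in the control arrays, a difference of −2.44 ± 0.53 (adjusted p = 0.00774). The groups overlapped through control array 6 alone. Cyp2c11, known as a male-specific cytochrome P450 of rat liver, was at 6.58, 6.84 and 7.19 in the apocynin arrays, close to the lowest signals on the array, and at 6.82, 9.97 and 10.55 in the control arrays, a difference of −2.21 ± 0.62 (adjusted p = 0.0281). Only control arrays 2 and 6 lay within the apocynin range. Hnmt, the histamine-methylating enzyme, was at 8.70, 9.57 and 10.47 in the apocynin arrays and 9.33, 12.31 and 13.29 in the control arrays, a difference of −2.14 ± 0.59 (adjusted p = 0.0252).

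The remaining falls named by the same rule were of genes with various roles. The amino acid transporter gene Slc7a13, which marks the straight proximal tubule, was at 10.25, 10.89 and 12.02 in the apocynin arrays and 10.88, 13.20 and 13.45 in the control arrays, a difference of −1.70 ± 0.42 (adjusted p = 0.0155). Control array 6 again lay among the apocynin arrays. Gc, the vitamin D binding protein, differed by −1.94, the calcium-binding protein regucalcin (Rgn) by −1.90, the small heat shock protein Cryab by −1.94, Iqch by −2.00, the prolyl isomerase Ppic by −1.83, the carnosine-cleaving Cndp1 by −1.81, the prolactin receptor Prlr by −1.80 and the organic anion transporter Slco1a6 by −1.78. All 12 had overlapping groups, and adjusted p-values lay between 0.00774 and 0.0338.

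The 36 probes are set here beside tissue markers and other choices of control arrays. All 36 were higher in control medulla than in control cortex, as were 5506 of the 11434 tested probes, and 3 of the 36 passed the threshold, against 1683 of all. Both comparisons use the control cortex arrays. The mean of 6 outer stripe markers, a list that includes Slc7a13, was 8.45 to 8.89 in the apocynin arrays and 8.60 to 9.60 in the control arrays (difference −0.44, exact permutation test, two-sided, p = 0.0173). This mean was highest in control array 4, and the difference was −0.33 without that array (p = 0.0303, exact permutation test). Slc7a13 was itself named as a large fall by this comparison, so these tests are not separate from that choice. The score of medulla minus proximal tubule markers, whose medulla list holds the fallen Cryab, differed by −0.22 (p = 0.331, exact permutation test). Without control array 4 the score differed by −0.04 (p = 0.652, exact permutation test). The part of tissue composition in the falls was not tested. The median of the 36 probes, taken from the control mean, was −1.81 to −1.29 in the apocynin arrays and −1.49 to 1.24 in the control arrays. The HLP arrays, of rats without apocynin, stood at −1.57 to −1.08 from the same mean, and the HLP+Apocynin arrays at −1.75 to −1.22. The count of 2-fold falls ranged between 12 without control array 3 and 60 without control array 6, and it was 17 without control array 1, 21 without control array 4, 23 without control array 5. It was 22, 15, 20 and 20 without apocynin arrays 1, 4, 5 and 6. Under the array names of the log2 table it was 3, and 2 of the 12 genes, Cyp2c11 and Rgn, were still called. With the outer stripe mean as a covariate, an alternative chosen after seeing the data, the count was 6 and 0 of the 12 genes were called. This mean holds Slc7a13, which is among the 12 genes, so the setting is not separate from the falls that it adjusts. With the score of medulla minus proximal tubule markers as a covariate the count was 20, and 11 of the 12 genes were called.

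**Figure D3:**
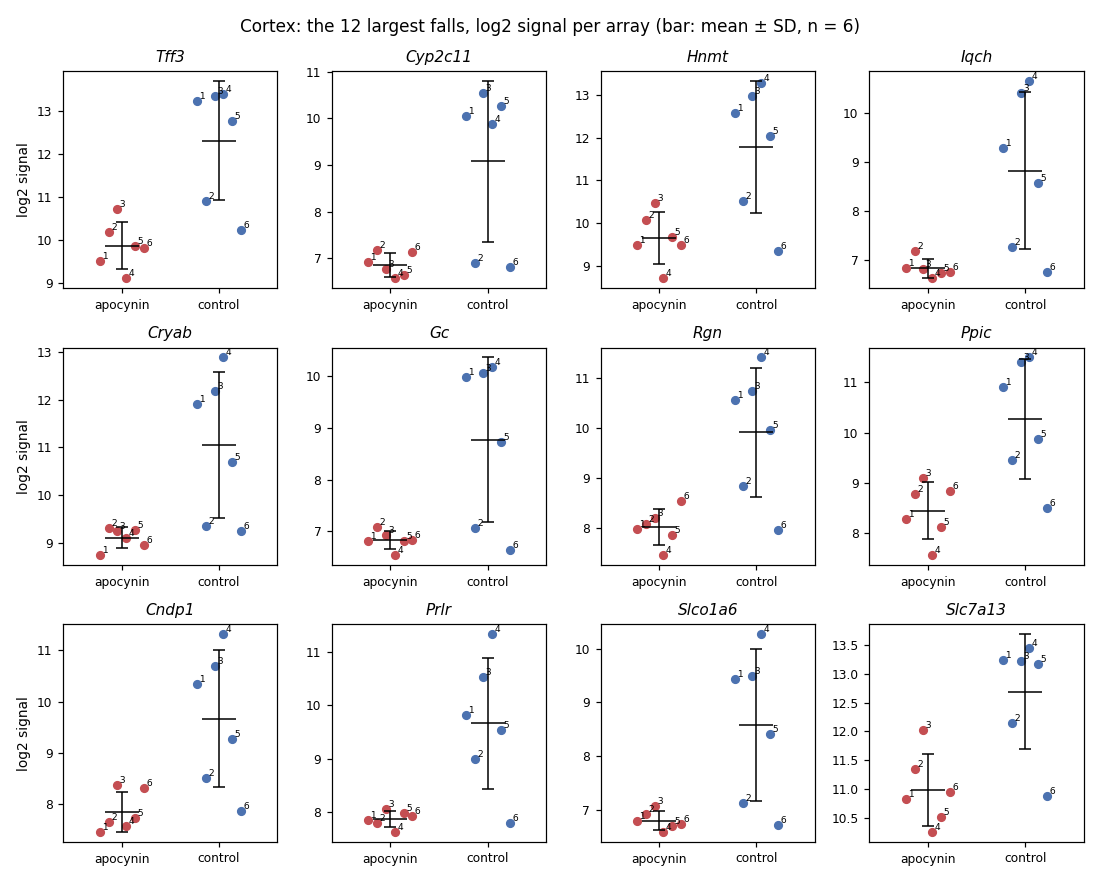
Log2 signal of the 12 genes of largest fall in each apocynin (red, left) and control (blue, right) cortex array; numbers are array numbers, and bars give the mean ± SD of 6 arrays. Control arrays 2 and 6 lie at or near the apocynin arrays while control arrays 1, 3, 4 and 5 lie above them.

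**Figure D4:**
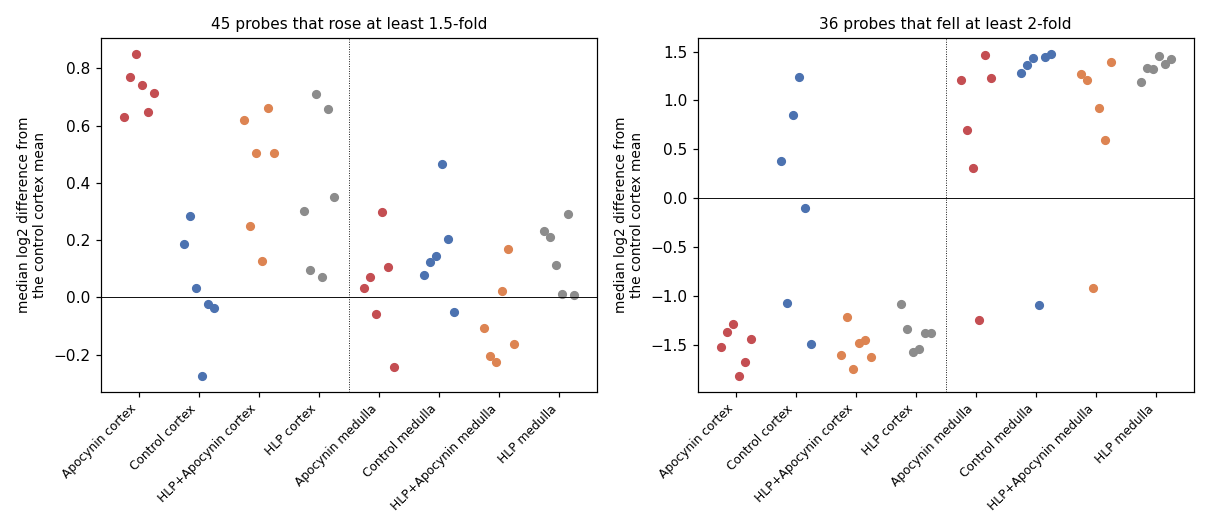
Median log2 difference from the control cortex mean of the 45 probes that rose at least 1.5-fold (left) and of the 36 that fell at least 2-fold (right), 1 point per array, in the 4 cortex and 4 medulla groups. The falls are low in all apocynin, HLP+Apocynin and HLP cortex arrays and in control cortex arrays 2 and 6, and high in most medulla arrays.

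The 45 larger rises had another distribution. Their median lay 0.63 to 0.85 above the control mean in the apocynin arrays and −0.27 to 0.29 from it in the control arrays. In the HLP+Apocynin cortex arrays it lay 0.13 to 0.66 above that mean, and in the HLP cortex arrays 0.07 to 0.71.

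Of 24 measured heat shock proteins and chaperones, which fold new or damaged proteins, 7 fell and 0 rose, and 6.14% of all genes fell. The median difference of the list was −0.13, against 0.00 for all genes. Dnaja4, a cytosolic co-chaperone of Hsp70, had a log2 signal of 9.74, 9.91 and 10.18 in the apocynin arrays and 10.29, 10.51 and 10.87 in the control arrays. The groups did not overlap, and the difference was −0.62 ± 0.11 (adjusted p = 0.0018). It was −0.54 between HLP+Apocynin and HLP cortex (adjusted p = 0.00061) and −0.61 in the medulla (adjusted p = 0.0027), so that all 3 comparisons passed the threshold. Hspa5 (BiP), the main Hsp70 of the endoplasmic reticulum, was at 12.55, 12.63 and 12.84 in the apocynin arrays and 12.89, 12.92 and 13.04 in the control arrays, again without overlap, a difference of −0.28 ± 0.05 (adjusted p = 0.00261).

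The other members that fell, named after their values were seen, were the calcium-binding lectin chaperone Calr (−0.29), the Hsp40 Dnajb1 (−0.58), the protein disulfide isomerase Pdia6 (−0.21), the endoplasmic reticulum protein Sdf2l1 (−0.07) and Cryab, which follows the pattern of the large falls. Calr and Hspa5 differed by −0.10 and −0.13 with HLP, and Dnajb1 by −0.11, none of them past the threshold there. With HLP, 4 members fell and 1 rose, and 7.56% of all genes fell in that comparison. In the medulla 6 fell and 0 rose, and 5.84% of all genes fell there. The number in the cortex was 1 under the array names of the log2 table, 2 in the 3 apocynin and 3 control arrays to which both tables give 1 group, and 4 without apocynin array 1, without control array 3 or with the outer stripe mean as a covariate.

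**Figure D5:**
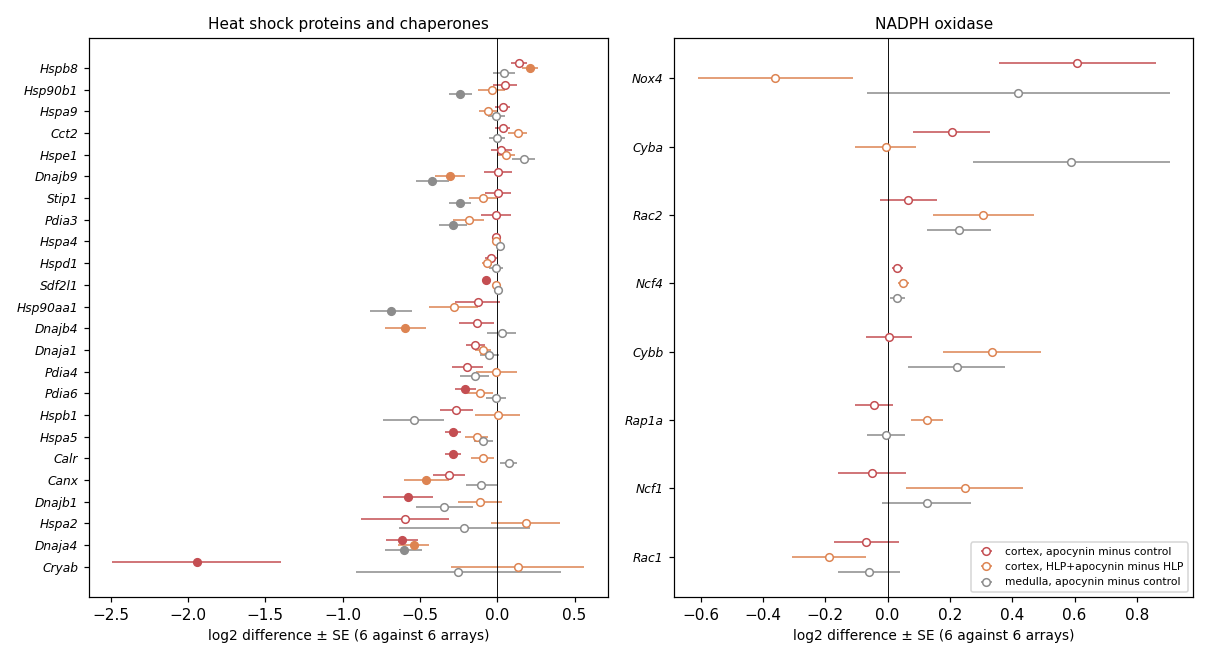
Log2 difference ± SE of each measured heat shock or chaperone gene (left) and NADPH oxidase gene (right): apocynin minus control in the cortex (red), HLP+Apocynin minus HLP in the cortex (orange) and apocynin minus control in the medulla (grey), 6 against 6 arrays each. Filled points have an adjusted p under 0.05, and among the NADPH oxidase genes no point is filled.

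The promoters of fallen chaperone and Nrf2 target genes are shown so that elements known to act on some of these genes can be seen in their place. They are RefSeq windows of 300 bases in build GRCr8, written 5′ to 3′ on the strand of the gene, and run across the annotated start. Capitals mark the endoplasmic reticulum stress element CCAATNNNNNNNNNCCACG in Hspa5 and Calr, the heat shock element GAANNTTC in Dnajb1 and the antioxidant response element TGACNNNGC in Gclm and Me1, each searched on both strands.
Hspa5, chr3:38452766-38453065, plus strand: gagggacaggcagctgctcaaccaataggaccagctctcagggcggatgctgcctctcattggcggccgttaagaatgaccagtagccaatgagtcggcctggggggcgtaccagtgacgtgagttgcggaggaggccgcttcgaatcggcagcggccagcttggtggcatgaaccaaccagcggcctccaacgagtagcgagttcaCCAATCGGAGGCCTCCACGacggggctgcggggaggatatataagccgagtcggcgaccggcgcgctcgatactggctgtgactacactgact
Calr, chr19:40213117-40213416, plus strand: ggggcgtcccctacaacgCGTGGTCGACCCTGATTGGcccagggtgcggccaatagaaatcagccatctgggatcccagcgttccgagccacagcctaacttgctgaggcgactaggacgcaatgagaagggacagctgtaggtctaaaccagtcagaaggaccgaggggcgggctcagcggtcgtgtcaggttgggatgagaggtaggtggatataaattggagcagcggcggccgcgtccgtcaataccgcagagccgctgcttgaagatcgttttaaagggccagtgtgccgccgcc
Dnajb1, chr19:41431092-41431391, minus strand: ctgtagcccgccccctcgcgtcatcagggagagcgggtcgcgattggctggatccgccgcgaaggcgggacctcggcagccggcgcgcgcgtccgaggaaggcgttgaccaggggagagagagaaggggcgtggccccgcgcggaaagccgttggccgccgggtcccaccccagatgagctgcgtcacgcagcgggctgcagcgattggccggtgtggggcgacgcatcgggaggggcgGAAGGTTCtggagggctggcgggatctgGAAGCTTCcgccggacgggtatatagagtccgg
Gclm, chr2:213031885-213032184, plus strand: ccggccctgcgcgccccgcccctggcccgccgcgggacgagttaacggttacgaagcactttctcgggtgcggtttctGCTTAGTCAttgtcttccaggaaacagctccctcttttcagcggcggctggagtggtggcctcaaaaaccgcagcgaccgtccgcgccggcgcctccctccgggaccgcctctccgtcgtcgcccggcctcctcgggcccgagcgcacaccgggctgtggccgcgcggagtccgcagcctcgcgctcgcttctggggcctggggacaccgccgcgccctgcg
Me1, chr8:96540195-96540494, minus strand: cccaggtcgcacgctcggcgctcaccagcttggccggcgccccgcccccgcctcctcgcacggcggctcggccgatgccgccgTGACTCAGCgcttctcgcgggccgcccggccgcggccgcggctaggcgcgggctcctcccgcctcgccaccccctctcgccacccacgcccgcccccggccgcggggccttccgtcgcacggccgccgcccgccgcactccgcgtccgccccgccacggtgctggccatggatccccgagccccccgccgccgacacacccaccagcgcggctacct

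The stress element, added to the search after the chaperones had been seen, begins at position −43 from the annotated start in Hspa5 and, on the other strand, at −232 in Calr. It is held by 0.0657% of 33469 rat promoter windows. Of the 7 fallen chaperones, 5 had a window in the table and 2 of these held it, and 2 of 14 windows of members that were not called held it too. Heat shock elements are in 8.59% of all windows, in 1 of the 5 fallen members (Dnajb1, with 2 matches) and in 6 of the 14 that were not called. The letters are a description of the windows, not of factor binding.

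None of the 8 measured NADPH oxidase genes passed the test. Nox4, the catalytic subunit of tubular cells, had a log2 signal of 9.998, 10.71 and 10.85 in the apocynin arrays and 8.83, 10.25 and 10.45 in the control arrays. The lowest value was that of control array 4 and the groups overlapped. The difference was 0.61 ± 0.25 (adjusted p = 0.117), with −0.36 in the HLP+Apocynin against HLP cortex (adjusted p = 0.33) and 0.42 in the medulla (adjusted p = 0.63). Cyba (p22phox), the membrane partner, was at 13.04, 13.19 and 13.24 in the apocynin arrays and 12.36, 13.04 and 13.28 in the control arrays, a difference of 0.21 ± 0.12 (adjusted p = 0.273). Cybb, the phagocyte catalytic subunit, was at 6.94, 7.09 and 7.36 in the apocynin arrays and 6.98, 7.13 and 7.31 in the control arrays, a difference of 0.01 ± 0.07 (adjusted p = 0.972). The cytosolic subunits Ncf1 (p47phox) and Ncf4 (p40phox) differed by −0.05 ± 0.11 and 0.03 ± 0.02, and the small GTPases Rac1, Rac2 and Rap1a by −0.07, 0.07 and −0.04. In the cortex the number of members called was 0 under every planned and added alternative. In the medulla, Cyba differed by 0.90 (adjusted p = 0.0159) without control rat 4, taken as the cortex and medulla control arrays of that number.

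Most enzymes that remove superoxide and peroxide did not pass the test. Of 19 measured, 2 fell, where 6.14% of all genes fell: Prdx6, a peroxiredoxin (−0.23 ± 0.07, adjusted p = 0.0439), and Txn2, the mitochondrial thioredoxin (−0.22 ± 0.07, adjusted p = 0.0422). The call of Prdx6 was kept in 11 and that of Txn2 in 12 of 32 alternatives. Cat differed by 0.08 ± 0.05 (adjusted p = 0.324) and Sod1 by −0.03 ± 0.04 (adjusted p = 0.652). Of 17 targets and regulators of Nrf2, the transcription factor of the oxidant response, 1 rose and 2 fell, where 14.2% of all genes were called. Keap1, which marks Nrf2 for degradation, was at 8.88, 8.94 and 9.06 in the apocynin arrays and 8.53, 8.62 and 8.71 in the control arrays, without overlap (0.32 ± 0.06, adjusted p = 0.00261). It differed by −0.08 with HLP and by −0.18 in the medulla. Gclm, the modifier subunit of glutathione synthesis, was at 11.78, 12.19 and 12.57 in the apocynin arrays and 12.08, 13.24 and 13.39 in the control arrays (−0.76 ± 0.22, adjusted p = 0.0359). The NADPH-making malic enzyme Me1 differed by −0.57 ± 0.18 (adjusted p = 0.0457), and by −0.50 with HLP (adjusted p = 0.028). The call of Keap1 was kept in 27, that of Gclm in 15 and that of Me1 in 16 of 32 alternatives. Keap1 lost its call with median scaling, with the authors' log2 values under either set of names and under the array names of the log2 table. It also lost it in the arrays to which both tables give 1 group. The promoters of Gclm and Me1 each hold 1 antioxidant response element, as 12.1% of all windows do. Of 10 windows of list members that were not called, 3 held it.

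Markers of nephron segments and vessels passed the test in both directions, in lists of few members beside the 14.2% of all genes that were called. All 5 measured markers of the distal convoluted tubule were higher in the apocynin group and 2 passed the test. Slc12a3, its sodium chloride cotransporter, was at 10.87, 11.10 and 11.20 in the apocynin arrays and 8.86, 10.41 and 10.72 in the control arrays (0.85 ± 0.25, adjusted p = 0.0345). The groups did not overlap, control array 4 was the lowest, and the difference was 0.10 with the array names of the log2 table (adjusted p = 0.83). Wnk4, a kinase that regulates this transporter, differed by 0.45 ± 0.10 (adjusted p = 0.0112). With HLP, Slc12a3 and Wnk4 differed by −0.41 and −0.10. With median scaling, 0 of the 5 passed.

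All 8 markers of the thick ascending limb were lower in the apocynin group, and Umod, the urinary glycoprotein uromodulin, passed the test. It was at 13.00, 13.07 and 13.30 in the apocynin arrays and 13.19, 13.32 and 13.49 in the control arrays, with overlap (−0.23 ± 0.06, adjusted p = 0.0251). Of 15 proximal tubule markers, 1 fell, the deacylase Acy3 (−0.35 ± 0.10, adjusted p = 0.025). Among 11 endothelial markers, Vwf, the von Willebrand factor, fell to 7.25, 7.47 and 8.27 in the apocynin arrays, against 8.06, 8.80 and 9.96 in the control arrays (−1.35 ± 0.31, adjusted p = 0.0104). It also differed by −1.08 in the medulla (adjusted p = 0.014) and by −0.11 with HLP (adjusted p = 0.84). Cldn5, a tight junction protein of endothelium, differed by −0.56 ± 0.12 (adjusted p = 0.00669), whereas Flt1, near the floor of the array, rose by 0.06. The markers of macrophages, fibroblasts, podocytes and intercalated cells held 0 calls.

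Among genes of drug handling and amino acid metabolism, control arrays 2 and 6 were again the lowest controls in Cyp2d5, Ugt1a1, Slc22a2, Oat and Agmat. Of 18 cytochromes P450, 0 rose and 2 fell, where 6.14% of all genes fell, namely Cyp2c11 and Cyp2d5 (−0.99 ± 0.28). Of 19 conjugation enzymes, 3 fell, Hnmt, the bilirubin glucuronosyltransferase Ugt1a1 (−0.99 ± 0.23, adjusted p = 0.0107) and Gstm3 (−0.04). The organic cation transporter Slc22a2 was at 9.60, 10.37 and 10.49 in the apocynin arrays and 10.33, 11.40 and 12.19 in the control arrays (−1.06 ± 0.27, adjusted p = 0.0187). The efflux pump Abcc3 moved the other way (0.42 ± 0.11, adjusted p = 0.0211). The ornithine aminotransferase Oat differed by −0.69 ± 0.16 (adjusted p = 0.0126) and Agmat by −0.65 ± 0.19 (adjusted p = 0.0337). Of 12 enzymes of hydroxyproline, glyoxylate and oxalate metabolism and of 13 clock genes, 0 passed.

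Single members of lists of energy and growth genes passed in both directions, beside the 14.2% of all genes that were called. No list was tested as a set. Those called were 17.6% of 17 gluconeogenesis and glycolysis genes, 8.33% of 36 respiratory chain genes and 4% of 25 lysosome genes. Calls made up 16.7% of 24 immediate early and 10% of 20 complement and coagulation genes. They made up 7.69% of 26 fatty acid and peroxisome genes and 13.6% of 22 ribosomal protein genes. Among cell cycle genes, 3 of 26 rose and 0 fell, where 8.04% of all genes rose, and 23 were higher in the apocynin group, a number that was 19 with median scaling. Of the risen members Ccne1 lies near the floor of the array. The cyclin-dependent kinase subunit Cks2 differed by 0.47 ± 0.14 (adjusted p = 0.041). Of 27 collagen and matrix genes 3 rose, again beside 8.04% of all genes, namely Grem1, Mmp2 (near the floor of the array) and the calcium-binding matrix protein Sparc, which was at 11.66, 11.72 and 11.80 in the apocynin arrays and 10.55, 11.13 and 11.58 in the control arrays, without overlap (0.60 ± 0.14, adjusted p = 0.0131). The phosphofructokinase Pfkl rose by 0.60 ± 0.12 (adjusted p = 0.00594) and the mitochondrial Pck2 by 0.28 ± 0.07 (adjusted p = 0.012), both without overlap. The respiratory chain genes Ndufs1 and Uqcrc1 rose by 0.22 and 0.20 while Cycs, cytochrome c, fell by 0.13. With median scaling, and with the authors' log2 values, 0 of the 36 measured respiratory chain genes were called. The lysosomal protease Ctsd was at 9.16, 9.57 and 9.90 in the apocynin arrays and 8.40, 8.87 and 9.20 in the control arrays (0.71 ± 0.15, adjusted p = 0.00649), and differed by 0.75 with HLP (adjusted p = 0.023). The early response gene Jun fell by 0.44, Klf2 rose by 0.52 and the membrane complement regulator Cd59b fell by 0.80. The anticoagulant receptor Thbd rose by 0.39, and the peroxisome gene Pex11a fell by 0.38. Among ribosomal protein genes Rpl19 and Rps27 rose by 0.15 and 0.19 and Rps2 fell by 0.22. The call of Klf2 was kept in 10, that of Cycs in 12 and that of Rps27 in 15 of 32 alternatives.

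Of 30 measured genes that the study names for its pathways, 2 rose and 2 fell, where 14.2% of all genes were called. Prkce, a protein kinase C, was at 7.37, 7.48 and 7.58 in the apocynin arrays and 6.72, 7.08 and 7.35 in the control arrays (0.41 ± 0.09, adjusted p = 0.00658). Ptk2b, the kinase Pyk2, rose by 0.30 ± 0.10 (adjusted p = 0.0493), a call kept in 4 of 32 alternatives. Agt, angiotensinogen, was at 6.66, 6.86 and 7.30 in the apocynin arrays and 6.77, 8.56 and 10.48 in the control arrays (−1.60 ± 0.50, adjusted p = 0.0455), with the spread of the large falls among the controls and the call kept in 11 of 32 alternatives. Umod was the other fall. Spp1, osteopontin, was at 11.02, 12.71 and 13.21 in the apocynin arrays and 11.31, 11.48 and 13.12 in the control arrays, where control array 4 was the highest (0.61 ± 0.38, adjusted p = 0.292). Mgp differed by 0.21 ± 0.18 (adjusted p = 0.432) and the chemokine Ccl2 by 0.00 ± 0.03 (adjusted p = 0.972). The angiotensin receptor genes Agtr1a and Agtr1b differed by 0.01 and −0.11, and Prkca, Prkcb, Prkcd, Prkcz, Plcg1, Plcg2, Itpr1, Itpr2, Mapk14, Ptk2 and Src by −0.06 to 0.20, none past the threshold.

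Several calls rested on signals near the floor of the array. Ccne1, Cd3e, Cnn1, Elf5, Flt1, Mmp2 and Ptgir were called higher by 0.05 to 0.11 on the log2 scale, and Fabp1, Gstm3, Slc7a5, Dusp5, Fbp2, Hipk2 and Usp18 fell by 0.04 to 0.12. All of them lie in the dimmest bin of the tested probes. Fabp1 was detected in 0 of 6 apocynin arrays and 6 of 6 control arrays, so that only a bound holds, at least 1.03-fold lower in the apocynin group (at most 6.49 in the apocynin group against 6.54 in the control group, on the log2 scale). Ptgir was detected in 6 of 6 apocynin and 0 of 6 control arrays, with a bound of 1.03-fold higher in the normalized signal. Both genes passed the detection filter only through the group where they were higher, so that their direction was fixed by that detection. The part of array brightness in these small differences was not tested. The mitotic gene Tpx2 (0.15), the vitamin D receptor gene Vdr (0.17) and the sodium channel subunit Scnn1g (0.21) were somewhat brighter.

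The difference between the groups was also set against that in rats on HLP. Between HLP+Apocynin and HLP cortex, which share no array with the first comparison, 917 probes rose and 923 fell, 16.1% of those tested. Of the probes called in both comparisons, 504 were higher in both, 178 lower in both and 2 opposite, which is 38.4% of the calls without HLP and 37.1% of those with HLP for the same direction. The HLP+Apocynin arrays too stand in the brighter column block (median signal 43.7 to 46.9, against 36.6 to 39.7 in the HLP arrays). The difference of the effects themselves was called in 0 of 11434 probes by limma, with 1966 at an unadjusted p under 0.05, where about 572 are expected by chance. The absence of calls does not show that the effects were equal. With the replicate number as a block, 1 probe was called.

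In the medulla of the same rats, 563 probes were higher and 680 lower in the apocynin group, 10.9% of the probes. Only 34 rose and 25 fell in both tissues, and 156 were called in opposite directions. The median unnormalised signal was 60.8 to 75.1 in the apocynin medulla arrays and 55.1 to 61.1 in the control medulla arrays. Control medulla arrays 1 and 4 and apocynin medulla arrays 1, 4 and 5 lay on the cortex side of the tissue midpoint. The part of brightness and of tissue composition in these calls was not tested. The effects differed between the tissues in 2142 probes (18.7%, limma), and in 769 with median scaling. Here the cortex and medulla arrays of the same group and number were joined as 1 rat, a pairing that the sample titles do not state. Raver1, a ribonucleoprotein, was at 8.59, 8.70 and 8.96 in the apocynin arrays and 7.77, 8.20 and 8.38 in the control arrays of the cortex (0.57 ± 0.10, adjusted p = 0.00192), and differed by −0.69 in the medulla (adjusted p = 0.00013). Ampd2, an AMP deaminase, was at 7.49, 7.67 and 7.89 in the apocynin arrays and 8.01, 8.11 and 9.04 in the control arrays of the cortex (−0.59 ± 0.16, adjusted p = 0.0256), and differed by 0.96 in the medulla (adjusted p = 0.00072). The groups of the cortex did not overlap in either gene. Kmt2e and Pfkl, which rose in the cortex, differed by −0.33 and −0.75 in the medulla. Acvr2b, an activin receptor, differed by −0.19 in cortex and 0.24 in medulla, and Rph3al by 0.20 and −0.20. Both arrays of control rat 4 were also left out, a setting chosen after seeing the data. In this setting 833 probes rose and 1009 fell in the medulla, and the effects differed between the tissues in 2863 probes. Raver1 (difference of effects 1.29), Ampd2 (−1.56) and Kmt2e (1.15) stayed past the threshold, as did Pfkl, Acvr2b and Rph3al.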

How the data were processed

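RNA of rat renal cortex and medulla was measured on 48 single-colour arrays. The authors deposited probe signals, linear intensities from Genome Studio without background subtraction or normalization, each with the detection p-value that Genome Studio gives against negative controls. The authors also deposited log2 values, which the methods call log transformed and normalized between samples. Samples were grouped by the column names of the signal table. The log2 table names 40 of 48 arrays for another sample, matched by correlation (r = 1). No chip or scan is given in the sources used here.

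Signals were corrected with nec of limma 3.58.1 in R 4.3.3 (normexp, offset 16), quantile normalized over 48 arrays and log2 transformed. Of these, 11434 probes passed the detection p-value of 0.05 in 6 or more of the 12 arrays and were fitted with lmFit and eBayes with a variance trend, and p-values were adjusted by Benjamini and Hochberg over all of them. The difference of effects with and without HLP used the 24 cortex arrays. That between tissues joined the arrays of the same group and number, taken as 1 rat (duplicateCorrelation, consensus 0.08). Scores of 6 against 6 arrays had an exact permutation test. Of 22226 probes, 13650 have 1 gene symbol and 8576 none. On simulated data of this comparison (11434 probes, 200 changed), 50.1%, 87.2% and 97% of changes of 1.2, 1.5 and 2 fold were recovered. The changed probes were drawn from those detected in all 12 arrays, with independent normal noise and no difference in brightness between the groups. Recovery among the other probes was not tested. Of the calls on these simulated data, 4.53% were false. The share of false calls in the measured arrays was not tested. The number of arrays limits the precision.

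The comparison, its members and its 46 gene lists were chosen with earlier results of these data known. Named genes were the 12 largest rises and falls with all apocynin arrays on 1 side of the control mean, up to 2 risen and 2 fallen genes of each list, the NADPH oxidase genes and those the study names, and up to 3 each way for each difference of effects. Alternatives were other background corrections, scalings, filters, array names, fits and covariates, the t-test of the methods, and leaving out each array.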

Additional observations from a re-analysis of the deposited data

Results flagged for a closer look

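Of 218 groups of 6 arrays examined (106 named genes and 3 array measures in each group), 17 held 1 array far from the other 5, where chance gives about 5% of groups, 1 in 20. Control array 4 accounts for 6 of them. Its tissue score was −1.34, nearest to −2.28 in another control array, Slc12a3 was low at 8.86, Fzd1 low at 9.84, Fbp2 low at 6.55, Ptgir low at 6.46 and the crystal modulator Spp1 high at 13.12. Among the apocynin arrays, array 1 was high in Fzd1 (11.49) and Raver1 (8.96), array 2 high in Iqch (7.19), array 3 high in Kmt2e (8.24) and Mgp (12.89) and low in Nox4 (9.998), array 4 low in Slc22a2 (9.60) and array 6 low in Mapk14 (9.01). Among the other control arrays, array 5 was high in Ampd2 (9.04) and low in Raver1 (7.77), and array 6 was low in Hpgd (8.43). All these are log2 signals.

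Of the 106 named genes, 29 had an apocynin effect in the cortex that differed from the effect in the medulla (limma, adjusted p under 0.05), beside 18.7% of all probes. Some of these genes were named for this difference and others for a large cortex effect, so the count describes the naming. Values are given as the cortex effect minus the medulla effect on the log2 scale. The difference was positive in the metabolic and signalling genes Pfkl (1.35), Klf2 (1.13), Ptk2b (0.67), Wnk4 (0.65), Pck2 (0.56), Abcc3 (0.43), Uqcrc1 (0.27) and Vdr (0.23), and in Raver1 (1.26), Kmt2e (1.17), Nr2f2 (1.096), Nop58 (0.80), Add3 (0.68), Keap1 (0.49), Rph3al (0.39) and Rps27 (0.26). It was negative in Tff3 (−2.24), Slc7a13 (−1.74), Ampd2 (−1.55), Rps2 (−0.52), Acvr2b (−0.43) and Acy3 (−0.43). Without control rat 4, Tff3 no longer passed (−1.69, adjusted p = 0.0554) and the other 28 did. Genes near the floor of the array had small differences: Cd3e 0.097, Ccne1 0.079, Elf5 0.077, Ptgir 0.062, Gstm3 −0.043, Fabp1 −0.056 and Hipk2 −0.10.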

How the results depend on the processing

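The 1774 calls became 3822 with no filter on detection, 863 among probes detected in all 12 arrays, 952 at a detection p under 0.01, 869 with the array names of the log2 table (680 of them shared with the 1774 in the same direction), 1100 with the authors' log2 values under those names, and 522 in the arrays with 1 group in both tables. With alternatives chosen after seeing the data there were 923 calls with the outer stripe mean, which holds the fallen Slc7a13, as a covariate and 661 without the dimmest bin. The other settings gave 1215 to 2081 calls, and leaving out 1 array gave 1283 (without control array 3) to 1781 (without control array 6). The numbers of the arrays did not pair them: same-numbered arrays deviated with r between −0.19 and 0.12, and 1 of 6 apocynin arrays was closest to the control array of its number. With the replicate number as a block there were 1215 calls, and the difference of effects with and without HLP had 1 call in place of 0. Fallen chaperones numbered 1 with the names of the log2 table, for signals and for the authors' values, 2 in the arrays with 1 group in both tables, 4 with the t-test of the methods after adjustment, 4 with the outer stripe covariate and 4 to 7 with 1 array left out. The difference of outer stripe means was −0.53 to −0.33 and of tissue scores −0.28 to −0.04 with 1 array left out. The effects of the tissues differed in 769 probes with median scaling. With the authors' values and the array names of their own table, Ndufs1 (−0.10), Slc12a3 (−0.068) and Uqcrc1 (−0.10) changed sign. The causes were not tested. Of 80 named genes called, 7 were called in every alternative that gave a value (Add3, Ccne1, Cd3e, Elf5, Hipk2, Mmp2 and Rph3al), 5 of them in the dimmest bin.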

Other observations

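Probes for olfactory, vomeronasal, taste and trace amine receptors, a group chosen after seeing the data, are known mainly from sensory tissue. Of 77 tested, 19 were called higher and 6 lower in the apocynin cortex, 32.5%, against 15.5% of all tested probes and 28.9% of the dimmest bin. The median size of the called differences among them was 0.06 on the log2 scale.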
